A study of Mus musculus with 2 samples.

Results

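Hedgehog signalling was read through 7 genes of the 32285 listed in both libraries. They were the ligands Ihh (Indian hedgehog) and Shh (Sonic hedgehog), the receptor Ptch1, the signal transducer Smo, the transcription factors Gli1 and Gli2, and the ligand-binding inhibitor Hhip. They were taken by symbol, each symbol matched 1 row, and all 7 had unique molecular identifiers (UMIs, the counted transcript molecules) in both libraries. The measurements were single-cell RNA sequencing of mouse colorectal tumours of the AOM/DSS model, in which a carcinogen (azoxymethane) is followed by a colitis-inducing agent (dextran sulphate sodium). They came from WT mice and from mice labelled STK25 wKO, in which the kinase STK25 is knocked out in the whole body. Both groups received the same tumour induction. Tumours of a group were pooled into 1 library, so each group was 1 sample, no difference between the groups has a replicate check, and no test was made. The series describes a sort by the presence or absence of mCherry, which the study's methods do not explain, and neither strain nor age is given in the sources used here.

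Levels are given as UMIs of a gene per 1000000 UMIs (CPM), summed over the cells of a type in 1 library, with an exact Poisson 95% interval. Differences are log2 ratios, knockout-labelled over WT-labelled library, so that a value below 0 means a lower level in the knockout-labelled one, with an exact binomial 95% interval. All intervals cover counting error only, not the spread between mice. Stk25 itself stood at 118 CPM (115 to 122) in the library labelled WT and at 127 CPM (124 to 130) in the library labelled STK25 knockout. Counts from the 3′ end do not show a deletion further upstream, so this value does not check the labels, and every direction below is a direction between the libraries as labelled. The libraries kept 12270 and 13883 cells, with a median of 1383 and 2091 UMIs a cell, and 221 of the kept barcodes occurred in both. Of all 12542 and 14168 barcodes, 230 were shared. T or NK cells numbered 3902 in the WT-labelled library and 1432 in the other, and neutrophils 218 and 1610. Names of states carry the suffix -like because they rest on marker genes of clusters, which were made without the 7 members.

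In the gut, Hedgehog ligands are secreted by the epithelium and act mainly on the mesenchyme beneath it. Without ligand, the receptor Ptch1 keeps Smo inactive. Ligand binding releases Smo, and the Gli factors then activate targets that include Ptch1, Gli1 and Hhip themselves, so that these genes serve both as parts of the pathway and as readouts of it. In the normal colon Ihh is the main epithelial ligand and is made by differentiated cells, whereas Shh is low and sits near the crypt base.

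The summed levels of Ptch1 and Hhip, the receptor and the inhibitor that are also targets, were both lower in the smooth muscle-like subcluster described below. The 250 bases before their RefSeq start sites are shown for that reason. Positions are of GRCm38.p6 and both genes lie on the minus strand, with each CpG in capitals. The start site of Ptch1 used there lies inside the outermost span of the annotated gene.

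Ptch1, chr13:63565736-63565985: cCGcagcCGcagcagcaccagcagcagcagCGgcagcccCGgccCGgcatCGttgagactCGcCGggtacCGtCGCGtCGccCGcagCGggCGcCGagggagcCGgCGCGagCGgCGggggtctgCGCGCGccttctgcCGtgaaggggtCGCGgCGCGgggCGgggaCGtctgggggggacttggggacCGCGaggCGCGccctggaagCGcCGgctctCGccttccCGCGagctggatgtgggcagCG

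Hhip, chr8:80058009-80058258: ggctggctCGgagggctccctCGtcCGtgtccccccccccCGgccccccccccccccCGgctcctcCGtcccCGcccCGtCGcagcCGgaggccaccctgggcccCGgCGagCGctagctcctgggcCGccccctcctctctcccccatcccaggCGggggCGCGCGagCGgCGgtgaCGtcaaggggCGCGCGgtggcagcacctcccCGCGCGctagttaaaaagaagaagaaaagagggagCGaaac

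The Ptch1 stretch holds 41 CpG at 78.4% G and C and the Hhip stretch 28 at 76.0%, against a median of 52.4% G and C over 32851 mouse promoters of that length. The letters TGGGTGGTC, or GACCACCCA for the other strand, which Gli factors are known to bind, occurred in 0.225% of these promoters and in none of the 5 member promoters in the table (Ihh, Gli2, Smo, Hhip and Ptch1), also with 1 mismatch allowed, which 5.79% of all promoters met. At such shares no match among 5 promoters was the likely outcome, so the search does not show whether Gli factors bind near these genes. The annotated genes lie on GRCm38 at chr1:74945315-74951672 (Ihh), chr5:28456815-28467256 (Shh), chr13:63508328-63573598 (Ptch1), chr6:29735503-29761365 (Smo), chr10:127329882-127341974 (Gli1), chr1:118834132-119053619 (Gli2) and chr8:79965851-80058006 (Hhip). Smo lies on the plus strand and the other members on the minus strand. Shh and Gli1 overlap counted genes on the opposite strand only.

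The ligands were epithelial. Of all Ihh UMIs in kept cells, 912 of 988 (92.3%) in the WT-labelled library and 1335 of 1488 (89.7%) in the knockout-labelled library lay in cells of the epithelial class. Of all Shh UMIs, 38 of 42 and 101 of 112 did. Clusters left without a class name, 2071 and 2248 cells with a median of 686 and 776 UMIs, held 23 and 50 UMIs of Ihh. The epithelial class also held a group led by Apoe, Peak1 and Lyz2 (27 and 622 cells) and a group led by Dock2, Arhgap15 and Skap1 (394 and 53 cells), whose leading genes are immune. Without them the ratio of Ihh below was −0.45 as before.

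Ihh was found at 40.6 CPM (38.0 to 43.3, 912 UMIs in 2649 cells) in epithelial cells of the WT-labelled library and at 29.7 CPM (28.1 to 31.3, 1335 UMIs in 4884 cells) in those of the knockout-labelled library. The log2 ratio was −0.45 (−0.57 to −0.33). The median log2 ratio of all 16741 genes tested there, those with at least 20 UMIs over both libraries, was −0.14. A UMI of Ihh was seen in 15.7% (14.4 to 17.2, exact binomial interval) and 16.9% (15.9 to 18.0) of epithelial cells, whose median depth was 4017 and 4398.5 UMIs, against 0.243% (0.0663 to 0.621) and 0.456% (0.0941 to 1.33) of B cells, which should lack the gene, at 948 and 1221.5 UMIs. After every cell was thinned to 1000 UMIs, which left out 177 and 152 epithelial and 914 and 213 B cells as too shallow, the shares were 2.79% and 2.36% in epithelial cells and 0.263% and 0.631% in B cells. The ratio was smaller when each cell had the same weight, at −0.19, when cells were thinned, at −0.26, and as the median over the named states, at −0.21.

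The difference in Ihh varied between epithelial states. Among states with at least 100 cells in each library it was largest in stem-like cells, the state marked by the Wnt targets Lgr5, Axin2 and Nkd1. There Ihh stood at 39.1 CPM (34.5 to 44.1, 267 UMIs in 582 cells) in the WT-labelled library and 18.9 CPM (16.4 to 21.6, 216 UMIs in 1105 cells) in the knockout-labelled library, a log2 ratio of −1.05 (−1.32 to −0.79). It was lower in all 3 subclusters of that state. In the subcluster led by Fstl4, Lgr6 and Fut9 it stood at 34.0 and 17.3 CPM, in the subcluster led by Mdga2 and Cadps at 25.5 and 9.10 CPM, and in the subcluster led by Pnliprp2, Mt3 and Mt4 at 46.3 and 21.5 CPM. The last of these, with the deepest cells, held 172 of the 267 and 151 of the 216 UMIs. A UMI of Ihh was seen in 19.6% (16.4 to 23.0) and 12.6% (10.7 to 14.7) of stem-like cells, and in 2.71% and 1.59% after thinning, for which 6 and 5 cells were too shallow. With equal weight for each cell the ratio in stem-like cells was −0.77, and with thinned cells −0.78.

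Ihh was also lower in an unnamed epithelial group led by Myl7, Phlda2 and Gpx2, at 57.8 and 35.8 CPM (log2 ratio −0.69, −0.97 to −0.41), and in Duoxa2-type cells, named for the maturation factor of the hydrogen peroxide-making oxidase Duox2, at 42.1 and 29.8 CPM (−0.50, −0.77 to −0.23). Within the Duoxa2-type state the subcluster led by Ly6d, Ly6m and Ubd had 47.9 and 30.7 CPM and the subcluster led by Abtb2, March3 and Clca3a2 had 24.7 and 23.0 CPM. The other named states of at least 100 cells in each library had intervals that included no difference. Absorptive colonocyte-like cells stood at 39.3 and 34.0 CPM (−0.21, −0.60 to 0.20). Goblet-like cells stood at 35.8 and 39.9 CPM (0.16, −0.30 to 0.63). Cftr Htr4-type cells, led by a chloride channel and a serotonin receptor, stood at 34.5 and 35.7 CPM (0.05, −0.30 to 0.41). Whether the ratio of stem-like cells differs from those of the other states could not be tested with 1 library a group.

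In order of level, the group led by Myl7, Phlda2 and Gpx2 was highest in the WT-labelled library, above Duoxa2-type cells by more than counting error (log2 ratio between them 0.46, 0.16 to 0.75), and every later step between neighbours of that order lay within counting error. In the knockout-labelled library no neighbours differed beyond counting error. Stem-like cells were close to the middle of the order in the WT-labelled library. In the knockout-labelled library they lay below the group led by Myl7, Phlda2 and Gpx2 and below goblet-like, Cftr Htr4-type, absorptive colonocyte-like and Duoxa2-type cells. Tuft-like cells held 4 and 1 UMIs of Ihh. Outside the epithelium and stroma the 8 other named classes had at most 6.80 and 6.74 CPM.

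Other genes moved in the stem-like cells beside Ihh. The 7 stem-like markers together were at 2323 and 2169 CPM (log2 ratio −0.10, −0.13 to −0.07). Of these, Lgr5 was at 296 and 294 CPM, Axin2 at 295 and 232 CPM and Ascl2 at 31.5 and 50.6 CPM. The 6 markers of dividing cells were at 595 and 426 CPM (−0.48, −0.54 to −0.42) and the 8 goblet markers at 224 and 534 CPM (1.25, 1.17 to 1.34). Of the immune lists none of the markers was at 0. The 7 neutrophil markers summed to 44.1 and 385 CPM, the 8 macrophage or monocyte markers to 99.99 and 199.5 CPM, the 9 T or NK markers to 34.8 and 14.8 CPM and the 6 B cell markers to 14.6 and 5.50 CPM. Their part in the Ihh difference was not tested.

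**Figure D1:**
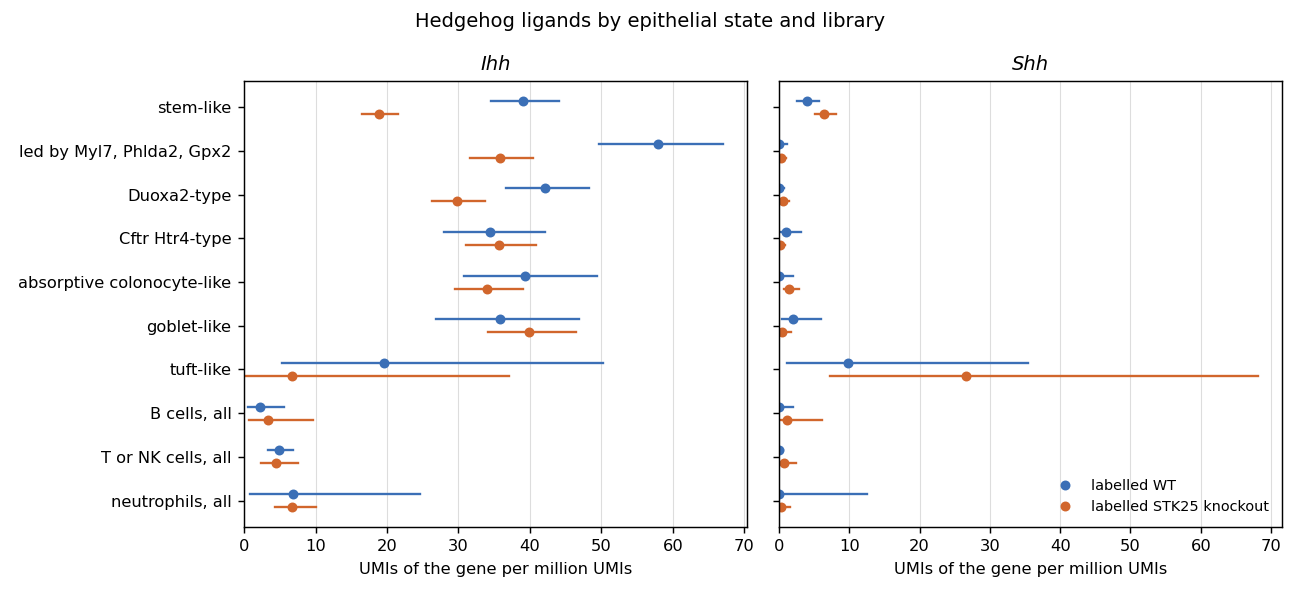
Ihh (left) and Shh (right) in CPM on the horizontal axis, by epithelial state and for B cells, T or NK cells and neutrophils as background. Points are the summed level of 1 library, blue for the library labelled WT and orange for the library labelled STK25 knockout, and bars are exact Poisson 95% intervals. In stem-like cells Ihh is at 39.1 and 18.9 CPM with bars that do not overlap, and among the states shown Shh has its highest points in tuft-like cells (9.82 and 26.6 CPM), with wide bars, followed by stem-like cells (3.95 and 6.46 CPM).

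Shh was rare, with 42 UMIs in kept cells of the WT-labelled library and 112 in those of the knockout-labelled library. In epithelial cells it stood at 1.69 CPM (1.20 to 2.32, 38 UMIs) and 2.24 CPM (1.83 to 2.73, 101 UMIs), a log2 ratio of 0.41 (−0.14 to 0.99), which includes no difference. Of these UMIs, 27 and 74 lay in stem-like cells. There Shh stood at 3.95 CPM (2.60 to 5.75) and 6.46 CPM (5.08 to 8.12), a ratio of 0.71 (0.06 to 1.40), opposite in sign to that of Ihh in the same cells. Shh was seen in 2.06% (1.07 to 3.57) and 4.34% (3.22 to 5.72) of stem-like cells. In B cells it had 0 UMIs in 1645 cells, which allows up to 1.63 CPM, and 1 UMI in 658 cells. The 3 stem-like cells with the most Shh held 55.6% of the UMIs in the WT-labelled library and 17.6% in the other. Without the highest cell of each library the ratio was 0.97 (0.24 to 1.74). With a stricter cell filter (500 genes or more, 10% mitochondrial UMIs or less) the stem-like interval reached 0 (0.64, −0.03 to 1.34), and it did so also at a resolution of 0.5 (0.58, −0.07 to 1.28).

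The stem-like subclusters carried unequal Shh. The subcluster led by Mdga2 and Cadps had 3 and 19 UMIs (2.32 and 13.3 CPM, log2 ratio 2.52, 0.76 to 4.92), the subcluster led by Pnliprp2, Mt3 and Mt4 had 16 and 47 (4.31 and 6.70 CPM), and the subcluster led by Fstl4, Lgr6 and Fut9 had 8 and 8 (4.39 and 2.67 CPM). Tuft-like cells, chemosensory cells marked by Dclk1 and Trpm5, had 2 and 4 UMIs in 32 and 41 cells, which came to 9.82 CPM (1.19 to 35.5) and 26.6 CPM (7.25 to 68.1). The tuft-like level exceeded the stem-like level beyond counting error in the knockout-labelled library (log2 ratio 2.04, 0.13 to 3.46), on 4 UMIs. Enteroendocrine-like cells had 2 UMIs in 7 cells of the WT-labelled library (91.0 CPM, 11.0 to 329) and 0 in 31 cells of the other. Squamous-like cells had 0 UMIs in 47 cells and 1 in 8 cells (14.1 CPM, 0.36 to 78.6). Goblet-like, absorptive colonocyte-like, Duoxa2-type and Cftr Htr4-type cells held from 0 to 9 UMIs each in a library.

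The receptor Ptch1 was present in nearly all classes, with its highest levels in stroma. In epithelial cells it stood at 24.7 CPM (22.7 to 26.9, 556 UMIs) and 17.1 CPM (15.9 to 18.3, 769 UMIs), a log2 ratio of −0.53 (−0.69 to −0.37). These levels lay within the range of the 8 non-epithelial, non-stromal classes, which was 6.19 to 84.6 CPM in the WT-labelled library and 9.83 to 44.3 CPM in the knockout-labelled library. A ratio below 0 was seen in some other classes too. T or NK cells had 33.6 CPM (29.2 to 38.4) and 16.0 CPM (11.7 to 21.2), a ratio of −1.07, and lymphatic endothelial cells had 84.6 and 44.3 CPM, a ratio of −0.94 (−1.62 to −0.26). B cells had 28.3 and 19.7 CPM (−0.52, −1.38 to 0.28). Blood endothelial cells had 31.3 and 30.1 CPM, dendritic cells 16.3 and 16.5 CPM, and macrophages or monocytes 17.7 and 16.5 CPM, so that these classes were nearly level. Plasma cells had 1 and 12 UMIs (6.19 and 35.6 CPM, a ratio of 2.53, −0.23 to 7.94). Whether the epithelial difference is separate from that in lymphocytes was not tested.

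Within the epithelium Ptch1 was highest in stem-like cells among the states with at least 100 cells in each library, at 49.3 CPM (44.2 to 54.9) and 32.8 CPM (29.5 to 36.2), a log2 ratio of −0.59 (−0.81 to −0.37). A UMI of it was seen in 35.1% (31.2 to 39.1) and 23.3% (20.9 to 26.0) of stem-like cells against 2.80% (2.05 to 3.71) and 2.13% (1.17 to 3.54) of B cells, and after thinning in 6.04% and 4.37% against 3.17% and 1.89%. The stem-like subcluster led by Mdga2 and Cadps had the highest Ptch1 of the 3, at 100.4 and 91.7 CPM (−0.13, −0.49 to 0.23). The subclusters led by Fstl4, Lgr6 and Fut9 and by Pnliprp2, Mt3 and Mt4 were at 43.9 and 31.3 CPM and at 34.2 and 21.4 CPM. Cftr Htr4-type cells followed at 31.9 and 17.5 CPM (−0.87, −1.29 to −0.44), and within them the subcluster led by Htr4, Esrrg and Cftr had 39.5 and 36.1 CPM (−0.13, −0.68 to 0.42). Its sister subcluster, led by Sycn, Adh1 and Thbs4, had 20.2 and 11.5 CPM, and held 72 of 372 cells of this state in the WT-labelled library and 312 of 619 in the other. Duoxa2-type cells had 5.14 and 5.40 CPM, the lowest of the named states in both libraries. Enteroendocrine-like cells had 3 and 10 UMIs in 7 and 31 cells.

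Smo, the membrane protein that passes the signal on, stood at 16.3 CPM (14.7 to 18.0) and 15.4 CPM (14.2 to 16.6) in epithelial cells, a log2 ratio of −0.08 (−0.27 to 0.10). As with Ptch1, stem-like cells led the states of at least 100 cells, at 35.0 and 30.8 CPM (−0.19, −0.43 to 0.06), goblet-like cells had 20.9 and 17.7 CPM, Cftr Htr4-type cells 21.5 and 15.6 CPM, and absorptive colonocyte-like cells 4.85 and 9.88 CPM (1.03, 0.01 to 2.23). Duoxa2-type cells were lowest again, with 2 and 16 UMIs (0.396 and 1.88 CPM, 2.25, 0.16 to 5.41). B cells had 4.35 and 6.58 CPM. Smo was higher in the knockout-labelled library in the group led by Myl7, Phlda2 and Gpx2, at 2.27 and 7.81 CPM (1.78, 0.64 to 3.16), a level close to that of B cells. In lymphatic endothelial cells, where Ptch1 was also lower, Smo was at 29.5 and 11.4 CPM (−1.38, −2.75 to −0.09).

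Of the 4 members with at least 20 UMIs in epithelial cells (Ihh, Shh, Ptch1 and Smo), none had a log2 ratio of at least 1 in either direction, where 7.97% of all genes tested did. In stem-like cells 1 of the same 4, Ihh, passed that fold, where 5.46% of genes did.

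**Figure D2:**
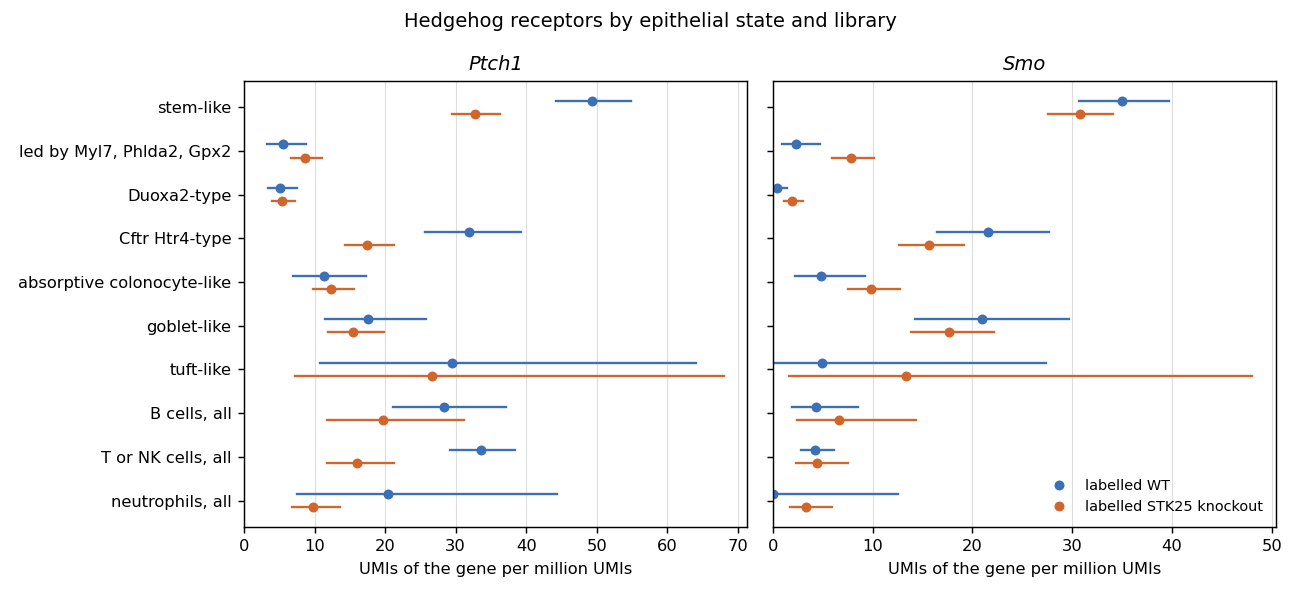
Ptch1 (left) and Smo (right) in CPM by epithelial state, with B cells, T or NK cells and neutrophils below. Points are the summed level of 1 library, blue for the library labelled WT and orange for the library labelled STK25 knockout, and bars are exact Poisson 95% intervals. Both genes are high in stem-like cells (Ptch1 49.3 and 32.8 CPM, Smo 35.0 and 30.8 CPM) and low in Duoxa2-type cells, and Ptch1 in B and T or NK cells lies within the epithelial range.

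In fibroblasts, 674 cells in the WT-labelled library and 806 in the other, Ptch1 was at 117 CPM (102 to 134, 220 UMIs) and 116 CPM (104 to 130, 304 UMIs). The log2 ratio was −0.01 (−0.27 to 0.25). This near-equal sum was made of subtypes with unlike levels, so it also moves with the share of each subtype in the class. Sox6 Bmp5 telocyte-like cells, which lie beneath the epithelium and make BMP ligands, had the highest Ptch1 at 634 CPM (494 to 803, 69 UMIs in 35 cells) and 713 CPM (560 to 895, 74 UMIs in 31 cells), with a ratio of 0.17 (−0.32 to 0.66). A Ptch1 UMI was seen in 65.7% (47.8 to 80.9) and 83.9% (66.3 to 94.5) of them. Another stromal group, led by Rad51b, Edil3 and Sntg1, had 267 CPM (186 to 372) and 416 CPM (307 to 552), with a ratio of 0.64 (−0.02 to 1.31). The group led by Fibin, Kcnn3 and Adamtsl3 had 74.3 and 97.4 CPM, with a ratio of 0.39 whose interval included 0. In the knockout-labelled library telocyte-like cells stood above the Rad51b-led group, and that group above Adamdec1 mucosal cells, beyond counting error, whereas no neighbours in the order did so in the WT-labelled library. In telocyte-like cells the 7 neutrophil markers summed to 73.6 and 819 CPM, with 4 and 2 of them at 0, and their part was not tested.

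Adamdec1 mucosal fibroblast-like cells had 118 CPM (89.9 to 153, 58 UMIs in 113 cells) and 191 CPM (158 to 228, 118 UMIs in 143 cells), a log2 ratio of 0.69 (0.22 to 1.17), and 0.66 (0.18 to 1.15) without the cell richest in Ptch1 in each library. Beside it, the 5 markers that name this subtype summed to 2026 and 3167 CPM (0.64, 0.53 to 0.76), the 8 telocyte markers were at 824 and 396 CPM (−1.06, −1.29 to −0.82), and the 7 neutrophil markers at 169 and 728 CPM with 2 and 1 of them at 0. The 8 macrophage or monocyte markers were at 114 and 454 CPM with 1 and 0 at 0, and the 8 epithelial markers at 722 and 1188 CPM. Their part in the Ptch1 difference was not tested. Pi16 adventitial fibroblast-like cells had the lowest Ptch1 of the named fibroblast subtypes with at least 20 cells in each library, at 43.9 CPM (27.5 to 66.4) and 43.6 CPM (30.2 to 61.0).

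Gli1 and Gli2 were mesenchymal. Fibroblasts held 75.7% and 89.7% of all Gli1 UMIs and 92.8% and 87.8% of all Gli2 UMIs. Epithelial cells held 2 and 2 UMIs of Gli1 and 4 and 9 of Gli2 among 22480656 and 45012972 UMIs, with upper limits of 0.321 and 0.161 CPM for Gli1 and 0.456 and 0.380 CPM for Gli2.

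Gli1, itself a target and a common readout of the pathway, was at 14.9 CPM (9.92 to 21.6, 28 UMIs) in fibroblasts of the WT-labelled library and 23.4 CPM (17.9 to 30.01, 61 UMIs) in those of the knockout-labelled library. The log2 ratio of 0.65 (−0.02 to 1.35) includes no difference. Its ratio was above 0 in the 5 fibroblast-type groups plotted, with 1 and 5 UMIs in telocyte-like cells, 2 and 5 in the group led by Rad51b, Edil3 and Sntg1, 3 and 3 in the group led by Fibin, Kcnn3 and Adamtsl3, 4 and 11 in Adamdec1 mucosal cells and 13 and 25 in Pi16 adventitial cells. Every one of these 5 intervals included 0. The group led by Myoc, Angptl1 and Mdk went the other way, with 2 UMIs in 16 cells and 0 in 38. Pericytes or smooth muscle cells did too, with 5 and 1 UMIs (19.9 and 1.75 CPM, a log2 ratio of −3.50, −9.07 to −0.34). This class value, over 81 and 151 cells, moves with the number of cells of each kind, and smooth muscle-like cells had 1 Gli1 UMI in each library. In Pi16 adventitial cells Gli1 stood at 25.9 CPM (13.8 to 44.3) and 32.1 CPM (20.8 to 47.3), although these cells were low in Ptch1.

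Gli2, a transcription factor that acts upstream of Gli1, was at 116 CPM (101 to 133, 218 UMIs) and 88.1 CPM (77.1 to 100.2, 230 UMIs) in fibroblasts, a log2 ratio of −0.40 (−0.67 to −0.13). The interval reached 0 with doublets removed (−0.21, −0.50 to 0.08) and without subclusters led by genes of other cell types (−0.25, −0.53 to 0.04). Gli2 was highest in the group led by Fibin, Kcnn3 and Adamtsl3, at 291 and 319 CPM, and in the group led by Rad51b, Edil3 and Sntg1, at 229 and 373 CPM. The sum over fibroblasts therefore also moves with the share of each subtype. The Fibin-led group held 72 and 48 cells. A C7 Grem1 fibroblast-like subtype held 28 cells, all of them in the WT-labelled library. Telocyte-like cells had 101 and 116 CPM and Adamdec1 mucosal cells 91.8 and 76.0 CPM. Pi16 adventitial cells had 114 and 73.1 CPM (−0.64, −1.19 to −0.08). Within these, a small subcluster led by Ano4, Hs3st5 and Lsamp stood at 430 CPM (278 to 635, 25 UMIs in 23 cells) and 184 CPM (115 to 278, 22 UMIs in 50 cells), a ratio of −1.23 (−2.12 to −0.34), and the subcluster led by Pi16 and Pcolce2 at 72.2 and 53.1 CPM (−0.44, −1.18 to 0.29). The difference between these 2 ratios was not tested.

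Smo in fibroblasts was at 49.6 CPM (40.0 to 60.7) and 44.8 CPM (37.1 to 53.7), a log2 ratio of −0.15 (−0.55 to 0.26), with 6 and 9 UMIs in telocyte-like cells and no interval of a named fibroblast subtype apart from 0. Telocyte-like cells, highest in Ptch1, had Smo levels with intervals that took in those of Adamdec1 mucosal cells (55.1 and 46.9 CPM), at 55.2 CPM (20.2 to 120) and 86.7 CPM (39.7 to 165).

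**Figure D3:**
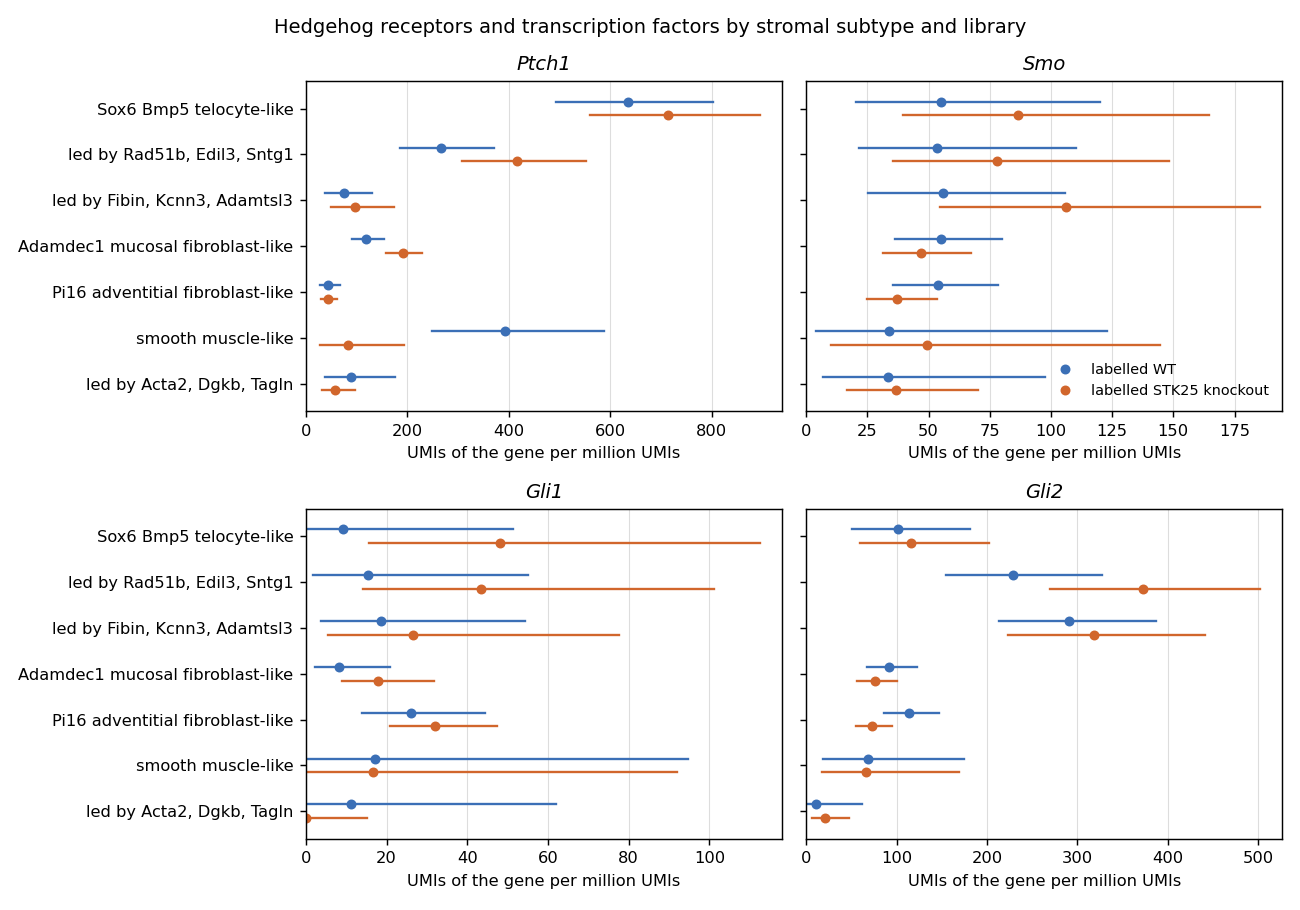
Ptch1, Smo, Gli1 and Gli2 in CPM by stromal subtype, each panel on its own linear axis from 0. Points are the summed level of 1 library, blue for the library labelled WT and orange for the library labelled STK25 knockout, and bars are exact Poisson 95% intervals. Ptch1 peaks in telocyte-like cells (634 and 713 CPM), Gli2 in the groups led by Fibin, Kcnn3, Adamtsl3 and by Rad51b, Edil3, Sntg1, and the bars of Ptch1 in smooth muscle-like cells (392 and 82.5 CPM) do not overlap.

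Hhip, a membrane protein that binds and sequesters Hedgehog ligands, was concentrated in smooth muscle-like cells. This subcluster was led by Itga8, Myh11 and Myocd and held 19 cells of the WT-labelled library and 23 of the knockout-labelled library. Hhip stood there at 1413 CPM (83 UMIs) and 660 CPM (40 UMIs), with intervals of 1125 to 1751 and 472 to 899 CPM and a log2 ratio of −1.10 (−1.68 to −0.54). A UMI was seen in 63.2% (38.4 to 83.7) and 43.5% (23.2 to 65.5) of these cells. Their median depth was 2685 and 1815 UMIs. After thinning, for which 0 and 1 cells were too shallow, the shares lay closer together, at 46.3% and 38.3%. In fibroblasts as a class Hhip had 26 and 25 UMIs, 13.9 and 9.57 CPM (−0.53, −1.39 to 0.32). No other stromal group with at least 20 cells in each library exceeded 38.2 CPM. Telocyte-like cells, the highest in Ptch1, had 0 Hhip UMIs in 35 and 31 cells, which allows up to 27.6 and 28.9 CPM. A group led by the contractile genes Acta2 and Tagln with Dgkb also had 0 Hhip UMIs, in 42 and 89 cells. Over the pericyte or smooth muscle class as a whole, 81 and 151 cells, Hhip stood at 333 and 78.9 CPM (−2.08, −2.64 to −1.54), a value that moves with the number of cells of each kind in the class.

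Few cells carried this value. In the WT-labelled library 12 of 19 cells had a Hhip UMI and the highest had 17 and 15 UMIs, and the 3 highest held 55.4% of the UMIs. In the knockout-labelled library 10 of 23 cells had a UMI, the highest had 13 and 8, and the 3 highest held 62.5%. The ranges of single cells overlapped. Without the highest cell of each library the log2 ratio was −1.32 (−2.02 to −0.65). In the knockout-labelled library 1 cell without Hhip held 10670 of the 60588 UMIs of the subcluster, and the ratio without it was not computed. Over smooth muscle-like and telocyte-like cells together the ratio of Hhip was −1.03 (−1.61 to −0.46), but −0.34 with equal weight for each cell and −0.40 after thinning. The 35 and 31 telocyte-like cells added no Hhip UMIs, so these equal-weight and thinned values also move with their number. In smooth muscle-like cells alone, equal weight for each cell also left Hhip lower in the knockout-labelled library, but by less than the summed ratio.

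The summed level of Ptch1 was lower in the smooth muscle-like subcluster too, at 392 CPM (248 to 587, 23 UMIs in 10 of 19 cells) and 82.5 CPM (26.8 to 193, 5 UMIs in 4 of 23 cells), a log2 ratio of −2.25 (−4.00 to −0.82). Its UMIs lay only in part in the cells that held Hhip. In the WT-labelled library the cells with 17, 15 and 13 Hhip UMIs had 0 of Ptch1, and the cell with 14 had 2. Gli2 had 4 UMIs in each library in this subcluster, Gli1 1 in each, and Smo 2 and 3. The smooth muscle markers did not move as 1 group in these cells. Tagln, an actin-binding protein, was at 5021 and 1287 CPM (−1.96, −2.34 to −1.60), and the contractile actin Actg2 at 1192 and 578 CPM (−1.04, −1.67 to −0.44). Synpo2, another actin-binding protein, was at 323 and 1766 CPM (2.45, 1.74 to 3.24), and the myosin Myh11 at 4630 and 4192 CPM (−0.14, −0.40 to 0.11). The 6 markers summed to 11966 and 8665 CPM, the 8 fibroblast markers to 4068 and 1981 CPM with 1 of them at 0 in each library, and the 6 pericyte markers to 749 and 264 CPM with 2 and 4 at 0. The 7 neutrophil markers summed to 119 and 1188 CPM with 3 and 1 at 0, the 8 macrophage or monocyte markers to 187 and 957 CPM with 3 and 2 at 0, and the 8 epithelial markers to 1209 and 2080 CPM with none at 0. Their part in the Hhip and Ptch1 differences was not tested.

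Of the 4 members with at least 20 UMIs over smooth muscle-like and telocyte-like cells (Ptch1, Smo, Gli2 and Hhip), 1, Hhip, had a log2 ratio of at least 1 in either direction, where 11.4% of the 3543 genes tested did. In fibroblasts none of 6 members did, where 6.82% of 12093 genes did.

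**Figure D4:**
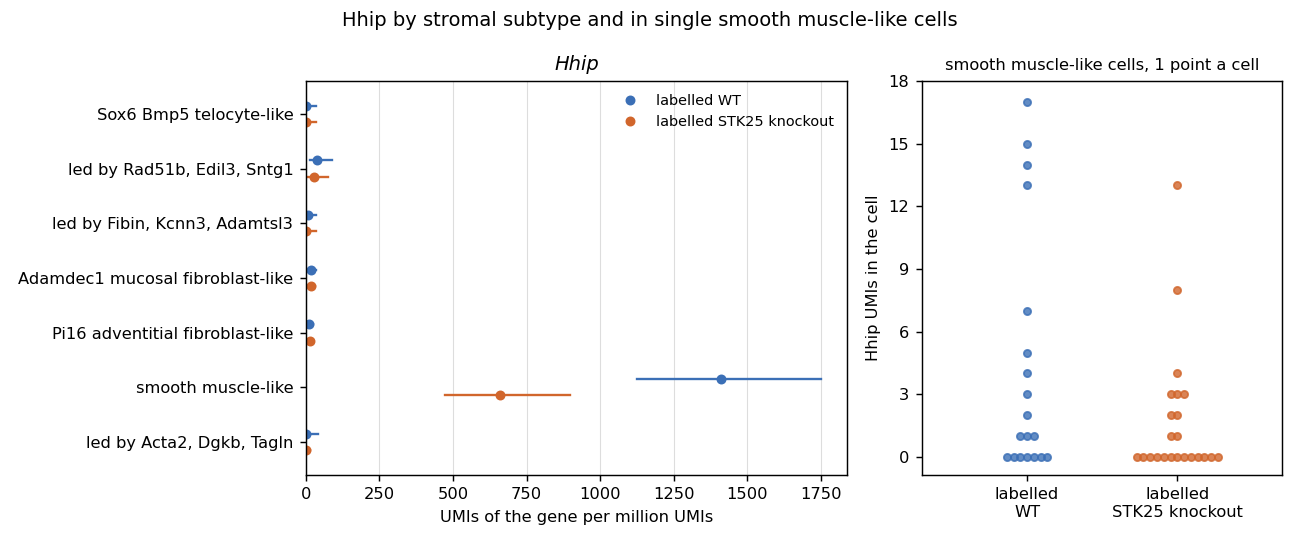
Left, Hhip in CPM by stromal subtype, with points for the summed level of 1 library and bars for exact Poisson 95% intervals. Right, Hhip UMIs in each of the 19 and 23 smooth muscle-like cells, with 1 point for each cell, blue for the library labelled WT and orange for the library labelled STK25 knockout. Hhip stands at 1413 and 660 CPM in smooth muscle-like cells and at 38.2 CPM or less in the other subtypes shown, and the highest single cells hold 17 and 13 UMIs.

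A further 32 genes of the pathway were read by role, from a list chosen with earlier results of these data known. In epithelial cells 23 of them had at least 20 UMIs, of which 5 were higher and 18 lower in the knockout-labelled library, with a median log2 ratio of −0.33. Over all genes tested there, 6188 were higher and 10553 lower, with a median of −0.14. In stem-like cells 2 of 19 were higher and 17 lower, with a median of −0.44, against 5714 higher, 8471 lower and −0.09 over all genes tested. In fibroblasts 8 of 27 were higher and 19 lower, with a median of −0.14, against 6277 higher, 5816 lower and 0.02. In smooth muscle-like and telocyte-like cells 2 of 9 were higher and 7 lower, with a median of −0.28, against 1785 higher, 1758 lower and 0.03.

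Of the 4 measured genes that make or release ligand, 3 had lower summed levels in epithelial cells of the knockout-labelled library. Hhat, which adds palmitate to the ligand, was at 6.58 and 4.24 CPM (log2 ratio −0.63, −0.95 to −0.31), and Disp1, which exports it, at 22.2 and 14.4 CPM (−0.62, −0.79 to −0.45). Whether the lower Disp1 was confined to the epithelium was not tested. Over all barcodes Disp1 had 982 and 960 UMIs among 38737373 and 66297749, of which 499 and 650 lay in epithelial cells. These totals also move with the number of cells of each type. In fibroblasts its ratio was −0.14 (−0.73 to 0.46). In pericytes or smooth muscle cells it was 1.14 (−1.09 to 4.37), on 2 and 10 UMIs. Scube1 was at 9.16 and 7.31 CPM (−0.33, −0.58 to −0.07), but with equal weight for each cell its direction turned, to 9.23 and 11.5 CPM. Disp2, a relative of Disp1, at 1.29 and 1.58 CPM, had an interval that included 0. In stem-like cells Hhat stood at 8.05 and 5.68 CPM and Disp1 at 43.8 and 31.0 CPM (−0.50, −0.72 to −0.27).

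The co-receptors, which help ligand bind Ptch1, differed between genes and between classes. Boc was lower in both epithelial cells, at 19.1 and 10.3 CPM (log2 ratio −0.89, −1.08 to −0.70), and fibroblasts, at 55.4 and 34.9 CPM (−0.67, −1.09 to −0.25). Cdon was lower in epithelial cells, at 16.1 and 12.3 CPM (−0.39, −0.58 to −0.19), and higher in fibroblasts, at 22.9 and 50.6 CPM (1.14, 0.63 to 1.67). Pi16 adventitial cells held 8 of the 43 and 70 of the 132 Cdon UMIs of fibroblasts (16.0 and 89.8 CPM, 2.49, 1.44 to 3.76). Gas1 was higher in epithelial cells, at 4.14 and 5.64 CPM (0.45, 0.10 to 0.81), and lower in fibroblasts, at 184 and 146 CPM (−0.34, −0.56 to −0.13). Gpc3, a glypican that competes with Ptch1 for ligand, was at 48.0 and 96.5 CPM in fibroblasts (1.01, 0.66 to 1.37).

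Among the signal transducers, Sufu, which holds Gli proteins back, was lower in epithelial cells, at 18.2 and 11.1 CPM (log2 ratio −0.72, −0.91 to −0.52), and in fibroblasts, at 35.2 and 22.6 CPM (−0.64, −1.17 to −0.11). Gli3, the main repressor of the family, was at 104 and 86.9 CPM in fibroblasts (−0.27, −0.55 to 0.02). The kinases Gsk3b and Csnk1a1, which act in several pathways, had ratios of −0.24 and −0.08 in epithelial cells and of 0.02 and −0.12 in fibroblasts. Kif7 had the lowest ratio in fibroblasts among the list genes with at least 20 UMIs, on 14 and 9 UMIs (−1.11, −2.50 to 0.20), an interval that includes 0.

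Among mesenchymal targets, Bmp4, a growth factor induced by Hedgehog in gut mesenchyme, was at 328 and 267 CPM in fibroblasts (log2 ratio −0.30, −0.46 to −0.14), and at 837 and 694 CPM in telocyte-like cells (−0.27, −0.74 to 0.19). Foxf1 was at 71.4 and 54.8 CPM in fibroblasts (−0.38, −0.73 to −0.03), and Foxf2, Foxl1, Nkx2-3 and Osr1 had intervals that included 0. In epithelial cells Bmp4 was 1 of 23 list genes past a log2 ratio of 1, on 3 and 22 UMIs, where 7.97% of all genes tested were past it. In fibroblasts Cdon, Gpc3 and Kif7 were 3 of 27, where 6.82% of all genes tested were past it.

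**Figure D5:**
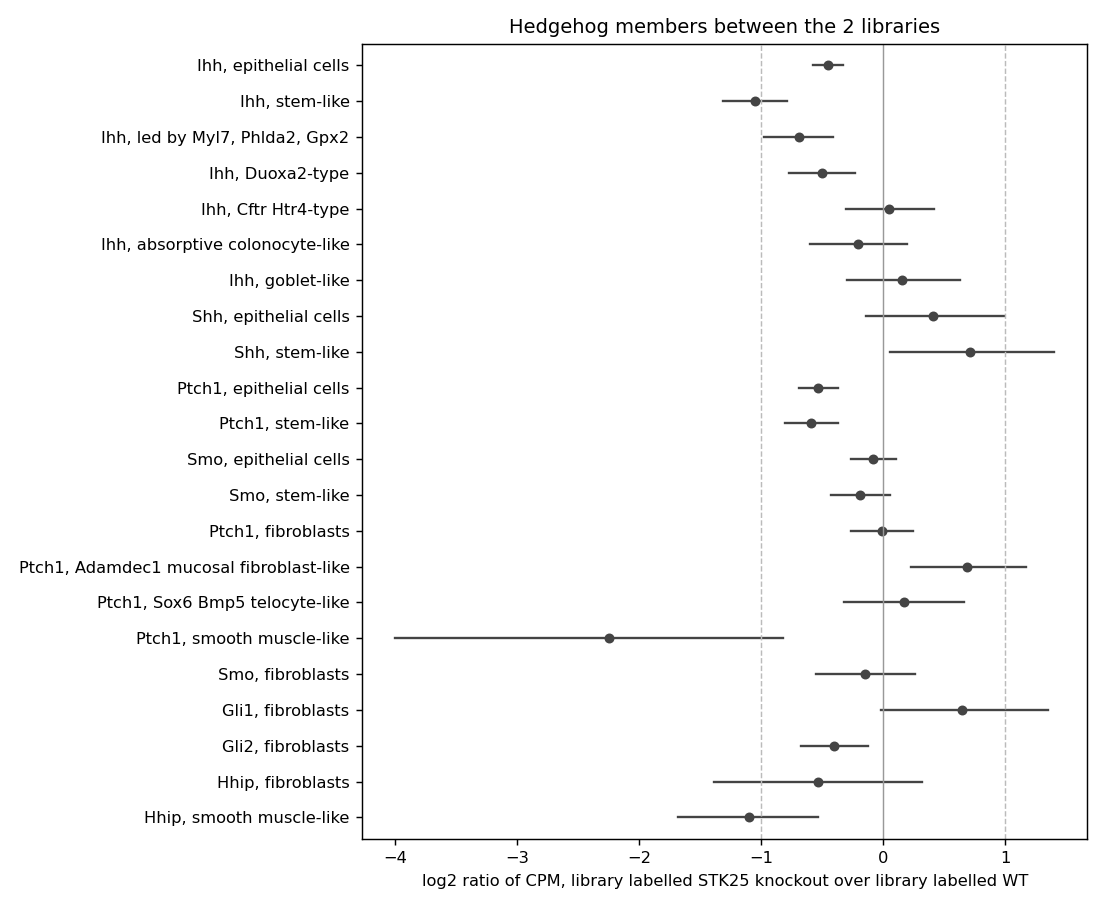
Log2 ratio of CPM, library labelled STK25 knockout over library labelled WT, for members of the pathway in the cell groups named at the left. Points are ratios of summed UMIs, bars are exact binomial 95% intervals that cover counting error only, the solid line marks no difference and the dashed lines a ratio of 1 in either direction. Ihh in stem-like cells (−1.05), Hhip (−1.10) and Ptch1 (−2.25) in smooth muscle-like cells lie at or beyond the left dashed line, and Ptch1 in Adamdec1 mucosal fibroblast-like cells (0.69) and Shh in stem-like cells (0.71) lie to the right of 0.

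Across 19 named states, subtypes and classes, each with at least 10 cells in each library, the genes most like each member in level were found by Pearson correlation of log2(CPM + 1), averaged over the libraries. Groups within a library share its depth and free RNA, so these values describe the libraries and carry no test. Gli1 and Gli2 were each the most like the other among 13712 genes (r = 0.99). Gli1 had only 37 and 68 UMIs in kept cells, 28 and 61 of them in fibroblasts. The value therefore rests mainly on stromal groups against the others. After Gli1, Gli2 was most like Fgf10, a mesenchymal growth factor (0.98), and Srpx (0.98). Hhip was most like the BMP receptor Bmpr1b, the muscle filament gene Des and Pcdh11x (0.95 each). Ptch1 was most like Rerg (0.92), Tenm3 (0.91) and Ptpn11 (0.91), and Smo most like Nfix (0.92), C1qtnf6 (0.90) and Trabd2b (0.90). Ihh was most like Degs2 (0.95), Fam83g (0.94) and Nipal1 (0.94). Shh was most like Col9a3 (0.89), Ccnj (0.86) and Bub3 (0.83). Between members, Ptch1 followed Gli1 and Gli2 at 0.76 each and Smo at 0.73, and Ihh against Ptch1 was at −0.57.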

How the data were processed

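The matrices the authors deposited, 1 for each of 2 libraries, hold UMI counts that are not normalized. Cell Ranger 7.1.0 is named in the file headers, and the submitters' processing notes name mm10 and Seurat. The sources used here do not say whether intronic reads were counted. The kit version is not settled by the labels. Kept cells had 200 genes or more and no more than 25% of UMIs from mitochondrial genes. Counts were scaled to 10000 per cell, and Leiden clustering (resolution 1) used 2000 variable genes, from which the 7 members and the 32 pathway genes were left out, with 30 principal components and a graph of 20 neighbours, with epithelial and stromal cells clustered again (Python 3.11.15, scanpy 1.11.5, leidenalg 0.10.2, seed 0).

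A cluster was named from marker sets where at least 3 markers were each in at least 10% of its cells and 5 points above the median cluster, by the set with the highest mean excess. It stayed unnamed where another set had more markers among its 10 leading genes, where it was shallow, or, in stroma, where Ptprc, Epcam or Pecam1 lay 30 points above the median subcluster. Members, lists and thresholds were chosen with earlier results of these data known. The rule for named genes took the 7 members, the list genes with at least 20 UMIs in the class described, and for each member the 3 most like genes with at least 100 UMIs. Cells are not replicates, so UMIs were summed per group and library. With 1 library a group there is no test. Poisson, binomial and Clopper-Pearson intervals are at 95%, and a count of 0 allows up to 3 counts. Doublets were not removed. Scrublet's automatic threshold marked 0 cells, so an alternative removed the highest scores at the expected rate, 9.81% and 11.11% of cells. Thinning to 1000 UMIs was computed as an expectation, and shallower cells were left out. The code for the ratios was checked on simulated counts. Other alternatives were the cell filter, the resolution, the mean over cells and, chosen after seeing the data, leaving out subclusters led by genes of other cell types or the highest cell. Clusters are called by their leading genes, of which some are not reported here. Promoters came from RefSeq (GRCm38.p6), of which 5 of 7 members matched.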

Additional observations from a re-analysis of the deposited data

How the results depend on the processing

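No paired analysis was possible because each group is 1 library. Across the alternatives, 64 values of the main results and 34 of the others stayed within the interval of the reported value or, for counts, within 1.5 times, 10 and 5 moved further, and none of these recomputed values that had been past 0 by its interval changed sign. Single genes of the list were not recomputed under every alternative, and Scube1 in epithelial cells, lower as a sum, was higher as a mean over cells (9.23 and 11.5 CPM). Csnk1a1 in epithelial cells turned too, from 306 and 290 CPM as a sum to 299 and 303 as a mean over cells. Prkaca, Gpr161 and Nkx2-3 also turned, from sums whose intervals included 0. For the list genes given next, weighting changed the size of the epithelial difference without turning it. Means over cells lay closer together for Hhat (8.40 and 6.80 CPM), Disp1 (26.7 and 21.4), Cdon (21.6 and 19.1) and Gas1 (3.80 and 4.28). For Disp2 they lay further apart (1.34 and 3.14). Ihh in epithelial cells moved from −0.45 to −0.19 as a mean over cells, −0.26 with thinned cells and −0.21 as the median over states. Hhip in smooth muscle-like and telocyte-like cells moved from −1.03 to −0.34 as a mean over cells and −0.40 with thinned cells. The cause was not tested. List genes past a log2 ratio of 1 in epithelial cells numbered 1, but 2 with no cell filter and 0 with thinned cells. In fibroblasts they numbered 3, but 1 at a resolution of 0.5, 1 with doublets removed and 1 with thinned cells. Smo in epithelial cells was −0.08, but 0.16 as a mean over cells and 0.09 with thinned cells. Ptch1 in epithelial cells was −0.53, but −0.18 as the median over states. Ptch1 in fibroblasts was −0.01, and ranged from −0.17 at a resolution of 0.5 to 0.19 with thinned cells. Settings chosen after seeing the data, which left out subclusters led by genes of other cell types or the highest cell, are among those that stayed within the interval. Depth limits Shh and Gli1, which had 0 UMIs in several groups, and the smooth muscle-like cells, of which there were 19 and 23.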
